A study of Mus musculus with 88 samples.

Results

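Embryonic stem cell (ESC) lines kept in a2i medium were compared with ESC lines kept in serum, all of 1 cross of mouse strains. The comparison used 8 of the 26 RNA-seq libraries of the series, 4 a2i lines (XX lines 4 and 18, XY lines 1 and 3) and 4 serum lines (XX lines 17 and 46, XY lines 10 and 16). They were chosen by medium, cross and sex, with no use of a measured value, and the sexes were balanced by averaging the XX and the XY difference. All 8 lines were F1 ESCs of 129X1/SvJ and C57BL6 mice at passage 3. The series holds 88 samples, and its 62 bisulfite sequencing samples were not analysed here. The other 8 libraries of the same cross (2i and t2i media) entered only the estimate of the spread between lines, and 2 libraries of mouse embryonic fibroblasts (MEFs), made from the cross of 129X1/SvJ and MSM/Ms, served as a fibroblast reference.

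Mouse ESCs are the cultured counterpart of the early epiblast. Serum medium with the cytokine LIF lets several signals act on them at once, among them FGF signalling through MEK and ERK, which readies ESCs to leave the naive state. The 2i medium blocks MEK and GSK3. The a2i medium (alternative 2i) is known to keep the GSK3 inhibitor, which stabilises beta-catenin, and to put an inhibitor of Src family kinases, the kinases that act at focal adhesions and below many receptors, in the place of the MEK inhibitor. The comparison thus asks how RNA levels differ between ESCs under GSK3 and Src inhibition and ESCs in serum. The labels name the media and do not list their contents, and the inhibitors, the base medium and any feeder cells cannot be told apart here.

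The serum libraries held fibroblast RNA and the a2i libraries held almost none. The summed RPKM of 20 fibroblast markers (collagens, Lum, Postn, Thy1 and others) ran from 735 to 1168 in the serum lines, from 11.8 to 19.1 in the a2i lines and from 8507 to 10086 in the MEFs. Relative to the MEF level, the median over these markers was 11.1% and 13.4% in serum XY lines 10 and 16, 8.34% and 13.2% in serum XX lines 17 and 46, and at most 0.0347% in any a2i line. Single markers gave 3.80% to 43.1% within a serum library. All 20 markers fell in a2i, with a median difference of −4.07 log2 units. Lum was listed at 0 in all 4 a2i lines. ESC identity held in both groups, since Pou5f1, Sox2, Nanog, Zfp42 and Esrrb summed to 2514 to 2884 RPKM in a2i, 1925 to 2597 in serum and at most 0.727 in the MEFs. In bulk RNA, fewer cells of a type and less RNA per cell cannot be told apart. The serum XX lines also held Y-linked RNA. Ddx3y read 0.673 and 0.709 RPKM in serum XX lines 17 and 46 and 0 in both a2i XX lines.

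Each gene was therefore placed in 1 of 2 classes. A gene was set aside where the fibroblast estimate (the share above times the gene's MEF level) came to 10% or more of its mean serum RPKM, and kept otherwise. Genes of the set-aside class can still differ in the ESCs, so the difference of those described here is also given, where it could be computed, after subtracting the estimate from each serum library. Differences are a2i minus serum on the log2(RPKM + 1) scale, positive where a2i is higher, and a gene is called at an adjusted p under 0.05 from limma over all 13150 genes tested. Levels are given in RPKM, per length of transcript, in the order XX line 4, XX line 18, XY line 1 and XY line 3 for a2i, and XX line 17, XX line 46, XY line 10 and XY line 16 for serum.

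As deposited, 1636 genes were higher in a2i (12.4% of those tested) and 3282 were lower (25.0%). The median over all genes was −0.06. Of 7448 kept genes, 1208 were higher (16.2%) and 1271 lower (17.1%), and the median was 0.01. Of 5678 set-aside genes, 427 were higher (7.52%) and 2008 lower (35.4%). The remaining 24 genes could not be placed, since the cross of the MEFs reads 0 there or they are Y-linked or mitochondrial. After subtraction, 24.5% of 12898 genes were higher and 13.6% were lower. Rescaling the serum libraries to their former totals afterwards changed these counts from 3166 higher and 1758 lower to 1794 higher and 2414 lower. Of the 2008 set-aside genes lower in a2i, 728 remained lower after subtraction, 968 were no longer called, 78 turned to higher and 234 fell under the filter on low values. Of the 1271 kept genes lower in a2i, 1027 remained lower and 237 were no longer called. Subtraction did not clear the fibroblast markers themselves. Of the 11 markers still tested after it, 7 were lower and 1 was higher (median −2.02), and Col3a1 stayed at −3.20 (SE 0.96, adjusted p = 0.02). A difference left after subtraction can thus still hold fibroblast RNA. Levels in the 4 a2i lines lay above all 4 serum lines in 6.54% of the genes and below all 4 in 16.9%. Quantile normalization shifted the all-gene median from −0.06 to 0.08 and changed the split to 3345 higher and 2234 lower, or 2234 higher and 798 lower among kept genes.

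**Figure D1:**
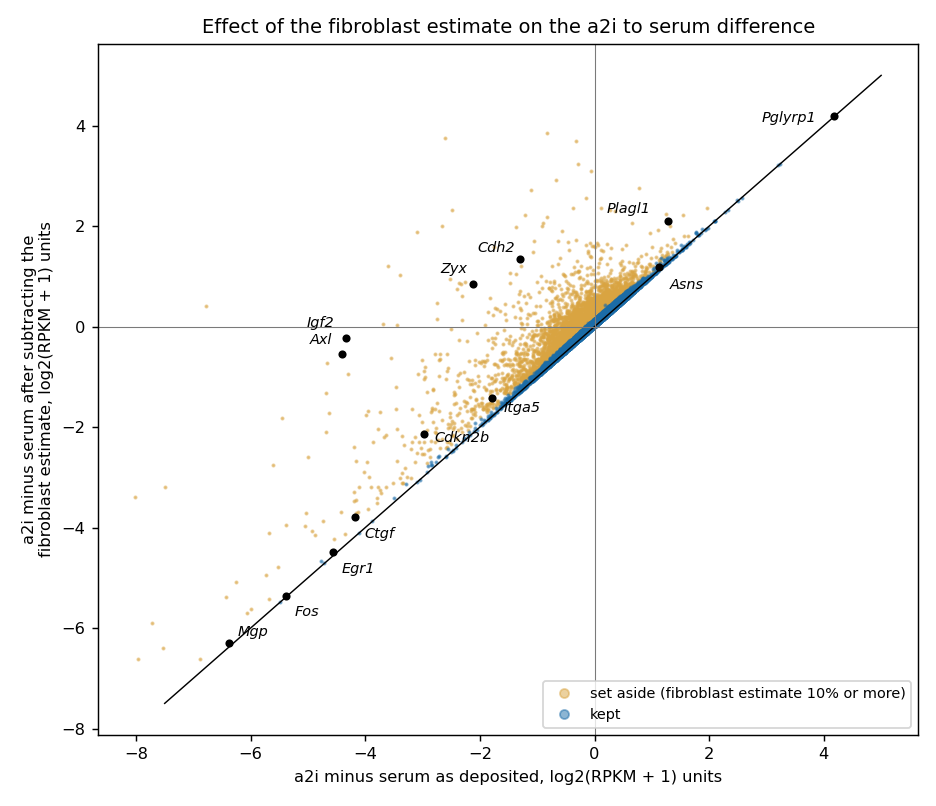
Each point is a gene: the a2i minus serum difference as deposited (x axis) against the same difference after subtracting the fibroblast estimate from the serum libraries (y axis), both in log2(RPKM + 1) units, kept genes in blue and set-aside genes in yellow, with the line of equal values in black. Fos, Egr1 and Pglyrp1 stay on the line, while Igf2 and Axl move from below −4 to near 0 and Zyx and Cdh2 cross 0.

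The immediate early genes fell together in a2i. They encode transcription factors that growth factor signalling through ERK and the serum response factor switches on within minutes. All 12 tested members of the list fell (median −2.42), 7 of them kept genes (median −2.85), beside 25.0% of all genes and 17.1% of kept genes called lower. All 12 were also called lower after subtraction (median −2.01), after quantile normalization, and without any 1 of the 8 libraries. Egr3 was below the filter on low values.

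Fos, a subunit of the AP-1 transcription factor, stood at 3.06, 5.30, 1.60 and 1.49 RPKM in a2i and 261, 261, 90.3 and 79.7 RPKM in serum. All 4 a2i lines lay far below all serum lines, and the serum XX lines lay above the serum XY lines. The difference was −5.39 (SE 0.16, adjusted p = 3.7e-11). Fosb, another AP-1 subunit, stood at 0, 0.0798, 0.144 and 0.0178 RPKM in a2i and 66.5, 85.4, 31.8 and 25.1 RPKM in serum. It was close to absent in every a2i line, with a difference of −5.48 (SE 0.12, adjusted p = 2.7e-12), and its MEF levels were only 0.773 and 1.91 RPKM. Egr1, a zinc finger factor induced by ERK, stood at 0.290, 1.10, 1.94 and 2.28 RPKM in a2i and 78.3, 82.8, 33.4 and 34.7 RPKM in serum. The groups did not overlap, and the difference was −4.56 (SE 0.14, adjusted p = 4.5e-11), at MEF levels of 23.3 and 23.5 RPKM.

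Junb, which also joins AP-1, stood at 7.03, 10.9, 7.12 and 8.85 RPKM in a2i and 72.2, 108, 50.5 and 49.3 RPKM in serum, with a difference of −2.85 (SE 0.17, adjusted p = 3.6e-08) and no overlap. Egr2 stood at 0, 0.0863, 0.0324 and 0.0961 RPKM in a2i and 6.44, 10.2, 3.55 and 2.90 RPKM in serum. It was near 0 in all a2i lines and fell by 2.56 (SE 0.15, adjusted p = 3.2e-08). Atf3, a stress-induced bZIP factor, fell by 1.65 (SE 0.31, adjusted p = 0.0011), and its a2i and serum ranges overlapped. Jun, the main partner of Fos, was set aside with a fibroblast estimate of 13.0% of its serum level. It stood at 3.41, 4.44, 1.23 and 1.74 RPKM in a2i and 37.5, 52.8, 28.4 and 24.0 RPKM in serum, and the difference was −3.34 (SE 0.17, adjusted p = 7.8e-09) as deposited and −3.12 (SE 0.17, adjusted p = 9.1e-08) after subtraction. Fosl1 differed by −2.28 as deposited and by −1.47 after subtraction.

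The 2 lines labelled S of the MSM/Ms cross had fibroblast marker sums of 72.8 and 169.5 RPKM, below the serum lines compared here. In these lines, XX line 8 and XY line 12, Fos read 5.15 and 23.4 RPKM, Egr1 11.9 and 61.7 RPKM and Fosb 0.419 and 0.876 RPKM. Fos in the XX line lay within the a2i range, Egr1 in the XY line lay within the serum range, and the other 4 values lay between the ranges. Their cross differs from that of the 8 lines, so these values stand beside the comparison without a test.

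The serum response factor binds the CArG box. The letters CCNNNNNNGG with A or T at each N, which read the same on both strands, were searched in the 250 bases before each RefSeq start (build GRCm38.p6). The box lay in 1.47% of 32851 windows and in 1.62% of 27025 genes. Among the immediate early genes it lay in 2 of 9 with an entry (Egr2 and Srf), and among the ERK feedback inhibitors described next in 1 of 7 (Dusp5). Egr2, Srf and Dusp5 all fell in a2i. The upstream stretches of Egr2 and Dusp5 are shown as examples, with the boxes in capitals and the last base next to the start. Egr2 has 5 annotated starts, of which 1 is shown. Its box begins 72 bases before the start. The pair of adjoining boxes of Dusp5 begins 82 and 72 bases before it.
Egr2, chr10:67537719-67537868, forward strand: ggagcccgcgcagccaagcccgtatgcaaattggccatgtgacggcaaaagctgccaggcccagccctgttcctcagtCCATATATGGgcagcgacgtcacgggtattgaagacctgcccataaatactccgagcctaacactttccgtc
Dusp5, chr19:53529025-53529144, forward strand: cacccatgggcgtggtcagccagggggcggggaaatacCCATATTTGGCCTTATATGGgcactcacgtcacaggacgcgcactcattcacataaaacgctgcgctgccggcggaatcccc

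Genes that ERK induces to restrain itself were also lower, but most of that list is abundant in fibroblasts. Of 9 tested ERK feedback inhibitors, 8 were lower as deposited (median −0.59), beside 25.0% of all genes. After subtraction 2 were lower (median −0.26), beside 13.6% of all genes. Both of the latter were dual-specificity phosphatases. Dusp5, an ERK phosphatase of the nucleus, stood at 2.54, 3.99, 1.79 and 1.72 RPKM in a2i and 13.5, 10.4, 8.65 and 8.17 RPKM in serum. Its groups did not overlap, and its difference was −1.69 (SE 0.14, adjusted p = 1.3e-06) as deposited and −1.48 (SE 0.15, adjusted p = 1.8e-05) after subtraction. Dusp6, the cytoplasmic ERK phosphatase, stood at 3.92, 8.14, 15.9 and 9.76 RPKM in a2i and 21.4, 22.2, 21.1 and 19.2 RPKM in serum, with a difference of −1.21 (SE 0.21, adjusted p = 7.4e-04) as deposited and −1.02 (SE 0.22, adjusted p = 0.0032) after subtraction. Dusp4, another nuclear phosphatase, moved from −1.29 to 0.06 with subtraction. Spry2, a Sprouty inhibitor of receptor tyrosine kinase signalling, moved from −0.57 (SE 0.14, adjusted p = 0.0068) to −0.36 (SE 0.14, adjusted p = 0.063), and Spry4 was not called (−0.59 (SE 0.31, adjusted p = 0.16)).

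The ETS and Myc group downstream of ERK showed no common shift in its kept members. Of 8 tested members 5 were lower, beside 25.0% of all genes, and of 4 kept members 1 was, beside 17.1% of kept genes. After subtraction 3 of the 8 were lower, beside 13.6% of all genes. Etv5, an ETS factor that follows FGF signalling in ESCs, stood at 115, 112, 111 and 84.8 RPKM in a2i and 45.3, 88.6, 128 and 121 RPKM in serum, and its difference was not called, at 0.24 (SE 0.19, adjusted p = 0.35). Etv4 was likewise not called (−0.53 (SE 0.26, adjusted p = 0.13)). Mycn, the Myc family member of the early embryo, fell by 0.58 (SE 0.13, adjusted p = 0.0047), with overlapping groups. Myc differed by −1.57 (SE 0.42, adjusted p = 0.011) as deposited and by −0.07 (SE 0.58, adjusted p = 0.94) after subtraction, with a fibroblast estimate of 57.3% of its serum level. Ccnd1, the D-type cyclin of G1, differed by −1.09 (SE 0.13, adjusted p = 3.0e-05) and, after subtraction, by −0.82 (SE 0.13, adjusted p = 5.2e-04).

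**Figure D2:**
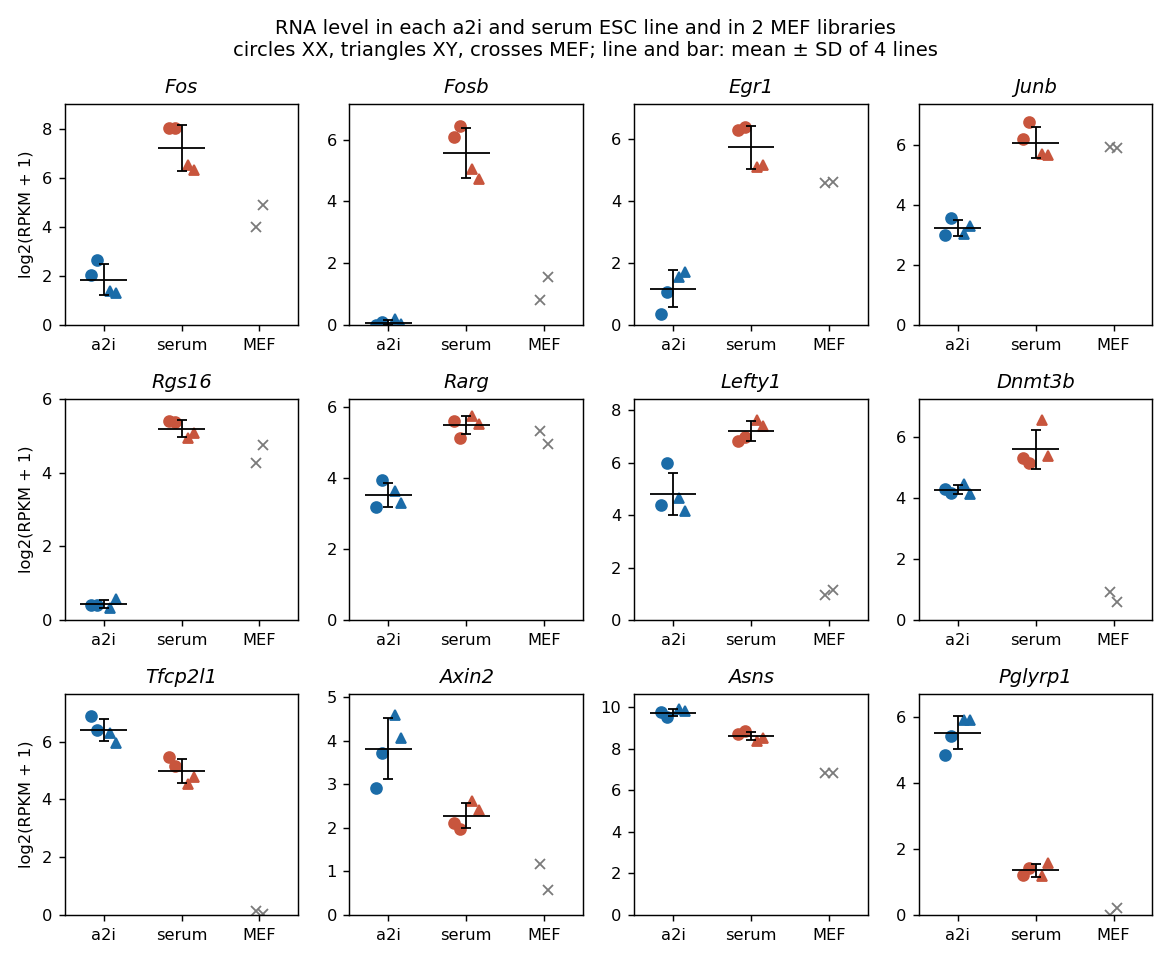
Levels of 12 genes as log2(RPKM + 1) on the y axis in each of 4 a2i lines (blue), 4 serum lines (red) and 2 MEF libraries (grey crosses), with XX lines as circles and XY lines as triangles; the horizontal line and bar are the mean ± SD of the 4 lines. In all 12 panels the a2i and serum lines do not overlap, from Fos (79.7 RPKM or more in serum, 5.30 or less in a2i) to Pglyrp1 (27.9 RPKM or more in a2i, 1.99 or less in serum).

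Targets of beta-catenin, which a GSK3 inhibitor stabilises, were listed together with the Tcf and Lef factors, and this list moved in both directions. Of 12 tested Wnt and GSK3 targets 4 were higher and 5 lower (median 0.15), beside 12.4% higher and 25.0% lower of all genes. Of 9 kept ones 4 were higher and 2 lower, beside 16.2% and 17.1% of kept genes. After subtraction 6 of 11 were higher and 1 lower, beside 24.5% higher and 13.6% lower of all genes. With rescaling 5 were higher and 3 lower, beside 1794 and 2414 of all 12960 genes. Under quantile normalization 6 of 12 were higher and 2 lower, beside 3345 and 2234 of all 13150 genes. As deposited, the lower count was 3 without a2i XY line 3 or serum XY line 16. Axin2, the scaffold of the beta-catenin destruction complex and its classical feedback target, stood at 6.51, 12.1, 23.1 and 15.6 RPKM in a2i and 3.34, 2.92, 5.12 and 4.31 RPKM in serum. Every a2i line lay above every serum line, and the difference was 1.54 (SE 0.19, adjusted p = 4.2e-05). Cdx1, a caudal homeobox gene, stood at 8.55, 14.7, 9.85 and 4.70 RPKM in a2i and 3.5, 1.76, 2.24 and 1.61 RPKM in serum, again without overlap, and rose by 1.62 (SE 0.32, adjusted p = 0.0017). Notum, an enzyme that strips Wnt ligands of their lipid, rose by 1.17 (SE 0.27, adjusted p = 0.005), with serum XX line 17 inside the a2i range.

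Sp5, a zinc finger gene induced by Wnt, stood at 0.473, 1.94, 8.12 and 3.90 RPKM in a2i and 0.419, 0.579, 1.83 and 0.924 RPKM in serum. The a2i XY lines were above all serum lines, a2i XX line 4 was not, and the difference was 1.0 (SE 0.32, adjusted p = 0.027). It was not called without a2i XX line 18, a2i XY line 1, serum XX line 17, serum XX line 46 or serum XY line 16, with values of 0.75 to 1.25 over the 8 left-out libraries. Tcf7l1, the Tcf factor that represses ESC genes, stood at 24.6, 21.2, 13.5 and 11.8 RPKM in a2i and 44.7, 37.8, 32.3 and 29.8 RPKM in serum and fell by 1.03 (SE 0.13, adjusted p = 6.4e-05), with all a2i lines below all serum lines. Tcf7, which activates with beta-catenin, was not called (0.05 (SE 0.10, adjusted p = 0.76)). Lef1 differed by −0.58 (SE 0.21, adjusted p = 0.048), with overlapping groups. It was not called without a2i XX line 4, a2i XY line 1, a2i XY line 3, serum XX line 17, serum XY line 10 or serum XY line 16 (range −0.85 to −0.31), nor under quantile normalization (−0.33). The differences of Nkd1 (−0.43) and Apcdd1 (−0.40), which were lower as deposited, turned to 0.05 under quantile normalization and to 0.48 after subtraction, respectively. Ccnd2, a D-type cyclin gene, had the largest difference of the list, −3.97 (SE 0.92, adjusted p = 0.0045). It was set aside, with a fibroblast estimate of 46.8% of its serum level, and differed by −2.69 (SE 1.02, adjusted p = 0.053) after subtraction.

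Tcf and Lef factors bind the core CTTTGA on either strand. These letters lay in 13.8% of the upstream windows, in 15.8% of genes, and in 4 of 10 Wnt targets with an entry (Lef1, Sp5, Dkk1 and Sp8). The Sp5 stretch is shown as that of a raised target, with its 2 cores in capitals, which begin 204 and 104 bases before the start.
Sp5, chr2:70474693-70474922, forward strand: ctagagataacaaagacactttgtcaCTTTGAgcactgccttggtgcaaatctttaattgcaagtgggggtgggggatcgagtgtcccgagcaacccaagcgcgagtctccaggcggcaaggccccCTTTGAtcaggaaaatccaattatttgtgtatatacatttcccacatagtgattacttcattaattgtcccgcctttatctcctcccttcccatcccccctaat

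Src family kinases are the targets of the second inhibitor of a2i. Of 8 tested members of their gene list 2 were higher, 2 lower and 4 not called, beside 12.4% of all genes higher and 25.0% lower. After subtraction 4 were higher and 2 lower, beside 24.5% and 13.6% of all genes. Under quantile normalization 3 were higher and 1 lower, beside 3345 and 2234 of all 13150 genes. Yes1 rose by 0.48 (SE 0.10, adjusted p = 0.0023) and Lck by 0.68 (SE 0.11, adjusted p = 3.8e-04). Lck stood at 19.6, 20.4, 38.9 and 38.4 RPKM in a2i and 17.5, 15.6, 17.2 and 17.7 RPKM in serum, highest in the a2i XY lines. Fgr, at 1.47 RPKM or less in every line, differed by −0.62 (SE 0.10, adjusted p = 2.5e-04) and by −0.15, not called, under quantile normalization. Src was not called (0.26 (SE 0.18, adjusted p = 0.28)). Fyn, set aside with a fibroblast estimate of 34.6% of its serum level, was not called as deposited (0.10 (SE 0.10, adjusted p = 0.49)) and was higher after subtraction, by 0.70 (SE 0.14, adjusted p = 0.0023). Csk, the kinase that switches Src kinases off, was also set aside and moved from −0.23 (SE 0.09, adjusted p = 0.073) to 0.08 (SE 0.10, adjusted p = 0.59), called in neither.

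Genes of focal adhesions, where Src kinases act, and of YAP, the coactivator that responds to adhesion and tension, were lower as deposited, and fibroblasts express most of them strongly. Of all genes 25.0% were lower as deposited and 13.6% after subtraction. Of 12 focal adhesion genes 10 were lower (median −0.85), 4 of them after subtraction (median −0.10), and only Itga6 of the 12 was a kept gene. Of 9 YAP targets all 9 were lower (median −1.71), 5 of them after subtraction (median −0.99). Itga5, the alpha chain of the fibronectin receptor, stood at 12.4, 11.6, 12.1 and 10.3 RPKM in a2i and 47.0, 38.7, 45.8 and 38.0 RPKM in serum. The groups did not overlap, and its difference was −1.78 (SE 0.11, adjusted p = 3.8e-08) as deposited and −1.42 (SE 0.13, adjusted p = 7.3e-06) after subtraction. Itgb5, an integrin beta chain, differed by −1.23 and by −0.85 (SE 0.16, adjusted p = 0.0017) after subtraction. Vcl (vinculin) kept a difference of −0.54 (SE 0.15, adjusted p = 0.012) after subtraction. For Itgb1 the value was −0.51 (SE 0.19, adjusted p = 0.055). Zyx (zyxin) moved from −2.12 to 0.84 (SE 0.57, adjusted p = 0.26), at a fibroblast estimate of 83.1% of its serum level.

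Among the YAP targets, Ctgf, a secreted matricellular protein, stood at 14.3, 9.45, 2.68 and 3.31 RPKM in a2i and 154, 111, 127 and 123 RPKM in serum. All a2i lines lay far below the serum lines, with a difference of −4.18 (SE 0.14, adjusted p = 1.3e-10) as deposited and −3.78 (SE 0.17, adjusted p = 1.0e-08) after subtraction. Its relative Cyr61 stood at 14.6, 9.59, 2.15 and 2.67 RPKM in a2i and 104, 163, 111 and 103 RPKM in serum and differed by −4.17, or by −3.46 (SE 0.17, adjusted p = 2.1e-08) after subtraction. Ankrd1 was listed at 0 in all 4 a2i lines and stood at 18.8, 9.66, 13.4 and 10.6 RPKM in serum, and its difference was −3.78 as deposited and −3.20 after subtraction. The 2 S lines of the MSM/Ms cross read 6.99 and 8.96 RPKM for Ctgf, 10.2 and 13.7 RPKM for Cyr61 and 0.463 and 0.196 RPKM for Ankrd1. The difference of Axl, a receptor tyrosine kinase, moved from −4.40 to −0.55 (SE 0.90, adjusted p = 0.66) with subtraction, and that of Lats2, a Hippo kinase, from −1.71 to 0.34 (SE 0.24, adjusted p = 0.29). How much of these YAP and adhesion differences comes from fibroblasts beyond the MEF-based estimate was not tested.

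**Figure D3:**
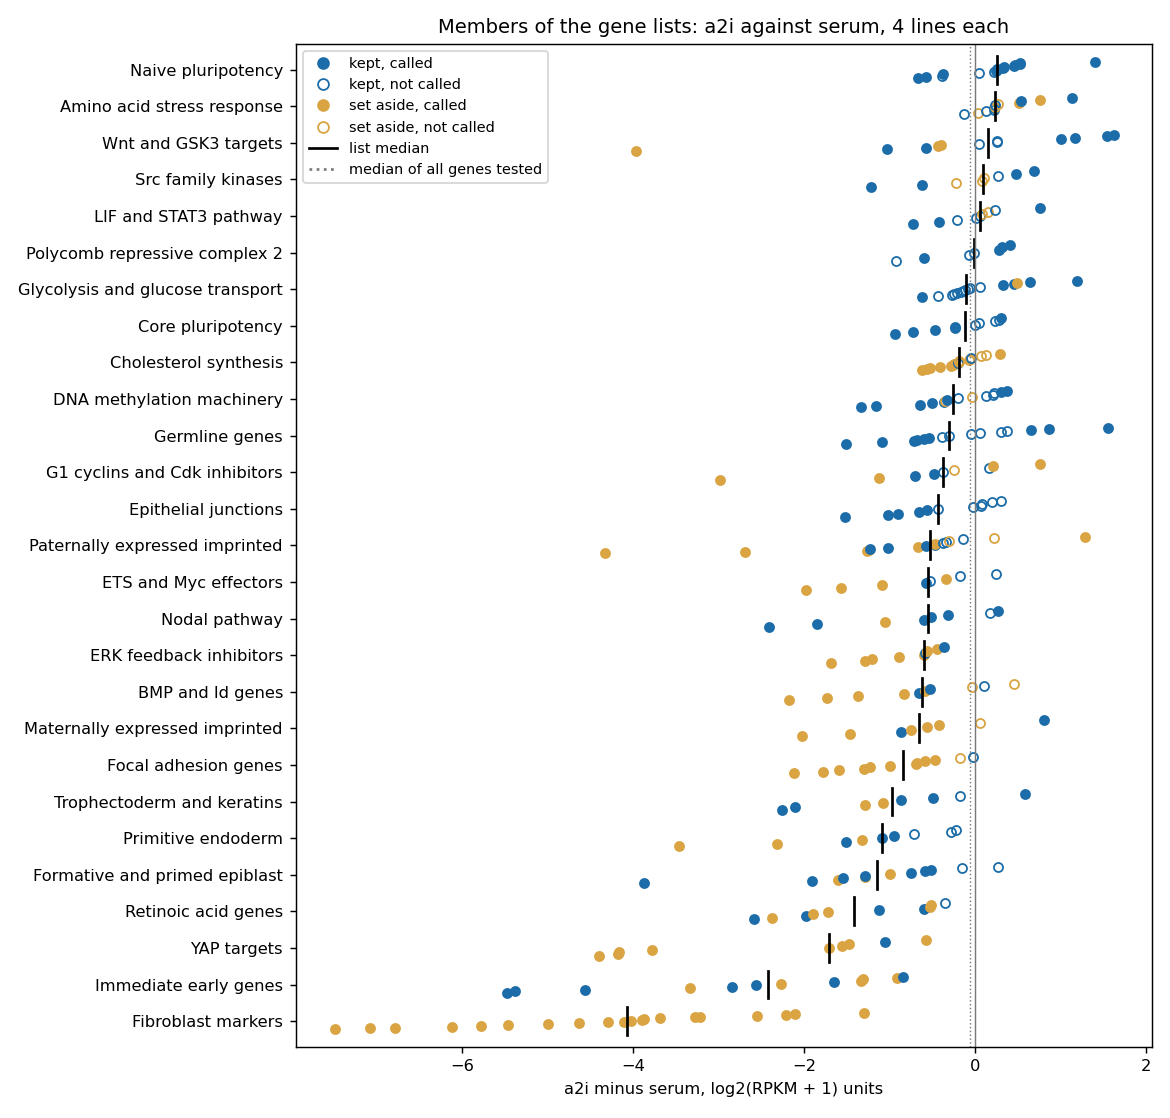
Each point is a tested member of 1 of 27 gene lists, placed by its a2i minus serum difference in log2(RPKM + 1) units (x axis), blue for kept and yellow for set-aside genes, filled where called; black ticks are list medians and the dotted line is the median of all genes. The immediate early genes (median −2.42) and YAP targets (−1.71) lie lowest after the fibroblast markers (−4.07), and the naive pluripotency genes (0.25) lie highest.

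The naive pluripotency network stayed expressed in both media, and part of it rose in a2i. All 16 listed genes were kept genes, 8 of them higher and 3 lower (median 0.25), beside 16.2% and 17.1% of kept genes. After subtraction with rescaling 5 were higher and 3 lower (median 0.13), beside 1794 and 2414 of all 12960 genes. As deposited, the count of higher genes was 5 without a2i XX line 4, serum XY line 10 or serum XX line 46. Tfcp2l1, a factor of the naive state that responds to LIF and GSK3 inhibition, stood at 118, 84.3, 78.1 and 61.4 RPKM in a2i and 43.6, 34.8, 22 and 26.7 RPKM in serum. It was the most raised of the 16, without overlap, by 1.40 (SE 0.14, adjusted p = 5.1e-06). Nr5a2, a nuclear receptor that sustains Oct4, rose by 0.53 (SE 0.12, adjusted p = 0.0034). Pecam1 (0.53 (SE 0.09, adjusted p = 8.0e-04)), Tcl1 (0.47 (SE 0.09, adjusted p = 0.0014)) and Fgf4 (0.45 (SE 0.09, adjusted p = 0.0015)) rose with overlapping groups, and in both media their XX lines lay above the XY lines.

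Nanog (0.04 (SE 0.09, adjusted p = 0.74)), Esrrb (0.22 (SE 0.11, adjusted p = 0.13)), Klf4 (−0.39 (SE 0.18, adjusted p = 0.11)) and Tbx3 (0.33 (SE 0.19, adjusted p = 0.19)) were not called. Nanog stood at 492, 375, 197 and 209.6 RPKM in a2i and 388, 375, 203 and 229 RPKM in serum. Its groups overlapped, and the XX lines were the higher ones in both media. Klf2, a Kruppel-like factor of the naive network, fell by 0.58 (SE 0.14, adjusted p = 0.0062). Prdm14, which represses de novo methylation genes, differed by 0.32 (SE 0.10, adjusted p = 0.022) and was not called without a2i XX line 4, a2i XY line 3, serum XX line 46, serum XY line 10 or serum XY line 16 (range 0.22 to 0.43). The count of lower genes in the list was 1 without serum XY line 16.

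Of 10 core pluripotency genes, all kept, Pou5f1 alone was higher and 4 were lower, beside 16.2% and 17.1% of kept genes. Pou5f1, which encodes Oct4, differed by 0.30 (SE 0.08, adjusted p = 0.013), was not called without a2i XX line 4, serum XX line 46 or serum XY line 16 (range 0.24 to 0.35), and read 0.11 under quantile normalization, where it was not called. Sox2 was not called (0.23 (SE 0.09, adjusted p = 0.055)). Utf1, a chromatin factor of ESCs, stood at 146, 150.3, 204 and 176 RPKM in a2i and 274, 309, 342 and 369 RPKM in serum. It fell by 0.94 (SE 0.10, adjusted p = 1.0e-05) without overlap. Lin28a, the RNA-binding protein that blocks let-7, fell by 0.73 (SE 0.18, adjusted p = 0.0067), with a2i XY lines 1 and 3 inside the serum range.

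Genes of the formative and primed epiblast, the states that follow the naive one, were mostly lower. Of 12 tested members 10 were lower (median −1.14), and of 9 kept members 7 (median −0.76), beside 25.0% of all genes and 17.1% of kept genes. Fgf5, the growth factor that marks the primed epiblast, stood at 0.0976, 0.129, 0 and 0.0257 RPKM in a2i and 2.34, 2.12, 2.06 and 1.87 RPKM in serum. The groups did not overlap and it fell by 1.54 (SE 0.10, adjusted p = 1.1e-07). Pou3f1, which encodes Oct6, stood at 1.29, 1.17, 0.548 and 0.763 RPKM in a2i and 3.86, 3.16, 4.34 and 3.5 RPKM in serum and fell by 1.29 (SE 0.12, adjusted p = 3.8e-06). Fgf15, another FGF ligand, stood at 1.19, 1.96, 0.348 and 0.589 RPKM in a2i and 6.52, 5.37, 6.36 and 6.76 RPKM in serum and fell by 1.9 (SE 0.16, adjusted p = 1.4e-06).

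Car4, a membrane carbonic anhydrase, was the most lowered of this list and stood at 1.07, 0.721, 0.150 and 0.114 RPKM in a2i and 17.8, 20.0, 32.0 and 15.2 RPKM in serum. Its difference was −3.87 (SE 0.18, adjusted p = 3.1e-09), at 0 RPKM in both MEF libraries, and the S lines of the MSM/Ms cross read 29.7 and 7.91 RPKM. Otx2, the homeobox factor that drives the exit from naive pluripotency, stood at 13.6, 20.5, 7.76 and 10.4 RPKM in a2i and 26.2, 14.3, 8.03 and 11.6 RPKM in serum. It was not called (−0.15 (SE 0.21, adjusted p = 0.61)). Cdh2 (N-cadherin) fell by 1.29 as deposited and turned to 1.34 (SE 0.18, adjusted p = 1.3e-04) after subtraction, where its fibroblast estimate exceeded its serum level.

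Lineage genes that serum ESC cultures express at low levels also differed. Fgf8, a ligand of the primitive streak, stood at 0.174, 0.635, 0 and 0.965 RPKM in a2i and 6.71, 9.70, 21.1 and 8.77 RPKM in serum and fell by 3.05 (SE 0.26, adjusted p = 1.4e-06). Eomes, a T-box factor, rose by 0.90 (SE 0.21, adjusted p = 0.0055), while Wnt3, at 1.23 RPKM or less, differed by −0.59 (SE 0.14, adjusted p = 0.006) and read −0.12, not called, under quantile normalization. Only 4 of the 9 mesendoderm genes passed the filter on low values. The summed level of the neural markers was 1.93 to 5.27 RPKM in a2i and 9.75 to 17.8 in serum, and both tested members, Pax6 (−1.70 (SE 0.15, adjusted p = 1.4e-06)) and Nes (−1.57 (SE 0.15, adjusted p = 4.0e-06)), fell.

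Primitive endoderm genes were lower, and 1 serum line held more of them than the others. Of 9 tested members 6 were lower (median −1.09), beside 25.0% of all genes, and of 6 kept members 3 were lower, beside 17.1% of kept genes. Under quantile normalization 4 of 9 were lower, beside 2234 of all 13150 genes. Gata4, a GATA factor that specifies primitive endoderm, stood at 1.34, 0.964, 0.382 and 0.671 RPKM in a2i and 2.49, 1.99, 16.3 and 2.84 RPKM in serum. Serum XY line 10 was far above the other serum lines, and the a2i lines were below all of them. The difference was −1.51 (SE 0.33, adjusted p = 0.0034), and −0.97 (adjusted p = 4.6e-04) without that line. For Gata6, a related factor that was set aside, the values were −1.33 (SE 0.25, adjusted p = 0.0013) with all lines and −0.91 without it, and −1.05 (SE 0.30, adjusted p = 0.017) after subtraction. Dab2, an endocytic adaptor that fibroblasts also express, had a fibroblast estimate of 47.9% of its serum level. Its difference was −3.46 (SE 0.26, adjusted p = 4.3e-07) with all lines, −3.04 without serum XY line 10 and −1.64 (SE 0.55, adjusted p = 0.032) after subtraction. Sox17 was not called (−0.71 (SE 0.40, adjusted p = 0.19)). The summed level of Gata4, Gata6, Sox17, Sox7 and Dab2 was 75.9 RPKM in serum XY line 10, 14.2 to 17.6 in the other serum lines and 1.96 to 3.02 in the a2i lines. Whether endoderm-like cells in that culture shaped other results was not tested.

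Simple keratins fell. Krt8 stood at 6.81, 5.61, 12.7 and 13.0 RPKM in a2i and 64.3, 49.2, 71.7 and 21.0 RPKM in serum and Krt18, its filament partner, at 14.2, 15.1, 11.2 and 14.1 RPKM in a2i and 77.7, 63.8, 86.5 and 34.2 RPKM in serum. Serum XY line 16 was the lowest serum line for both, still above every a2i line. The differences were −2.26 (SE 0.27, adjusted p = 2.6e-05) and −2.11 (SE 0.22, adjusted p = 8.7e-06). Of the 8 trophectoderm and keratin genes 6 were lower, beside 25.0% of all genes. The count was 4 after subtraction, beside 13.6% of all genes, and 4 under quantile normalization, beside 2234 of all 13150 genes. Ascl2, a bHLH factor, was higher (0.58 (SE 0.15, adjusted p = 0.01)). Of 11 epithelial junction genes, all kept, 5 were lower and none was higher (median −0.43), beside 17.1% and 16.2% of kept genes. When a2i XX line 4, a2i XX line 18 or serum XX line 46 was left out, 1 was higher. Cdh1 (E-cadherin) was not called with all libraries (0.20 (SE 0.09, adjusted p = 0.087)). Esrp1, the splicing regulator of epithelia, stood at 5.74, 3.14, 10.4 and 11.8 RPKM in a2i and 18.2, 15.7, 28.9 and 27.9 RPKM in serum and differed by −1.52 (SE 0.16, adjusted p = 7.6e-06), and Cgn (cingulin) by −1.02 (SE 0.12, adjusted p = 2.7e-05).

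Targets of the Nodal pathway were lower in a2i. Of 8 tested members 6 were lower (median −0.56) and 1 was higher, beside 25.0% and 12.4% of all genes. The higher call was lost without any 1 of the 8 libraries. Lefty1, a secreted Nodal inhibitor that Nodal itself induces, stood at 19.9, 61.9, 24.3 and 16.9 RPKM in a2i and 111, 125, 197 and 169 RPKM in serum. The groups did not overlap, a2i XX line 18 was the highest a2i line, and the difference was −2.41 (SE 0.29, adjusted p = 3.3e-05). Skil, a Smad corepressor and target, differed by −1.06 (SE 0.10, adjusted p = 4.5e-06) and by −0.88 after subtraction. Nodal itself (−0.32 (SE 0.09, adjusted p = 0.013)) and Lefty2 (−0.60 (SE 0.22, adjusted p = 0.049)) were called with all libraries only narrowly. Nodal was not called without a2i XY line 3 or serum XY line 10, over a range of −0.38 to −0.26. Lefty2 was not called without a2i XX line 4, a2i XY line 3 or any 1 of the serum lines, over a range of −0.90 to −0.30, nor under quantile normalization (−0.58).

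BMP signalling acts through Id genes, which fibroblasts express strongly. Of 10 listed genes 7 were lower as deposited and none higher, beside 25.0% and 12.4% of all genes. After subtraction 4 of 9 were lower and 1 higher, beside 13.6% and 24.5%. Id3, an inhibitor of bHLH factors, stood at 3.06, 13.4, 27.8 and 18.4 RPKM in a2i and 53.2, 88.5, 52.7 and 51.4 RPKM in serum, with a difference of −2.18 (SE 0.45, adjusted p = 0.0023) as deposited and −1.41 (SE 0.46, adjusted p = 0.03) after subtraction. Id1 moved from −1.73 to −0.34 (SE 0.41, adjusted p = 0.54). The ligand Bmp4, set aside, was not called as deposited (0.45 (SE 0.23, adjusted p = 0.15)) or after subtraction (0.60 (SE 0.24, adjusted p = 0.064)) and was higher under quantile normalization (0.66, adjusted p = 0.041). Genes of the LIF pathway showed 1 higher, 2 lower and 6 not called of 9, shares near those of all genes (12.4% and 25.0%). After subtraction 3 were higher and 2 lower, beside 24.5% and 13.6% of all genes. Pim1, a kinase gene induced by Stat3, fell by 0.73 (SE 0.10, adjusted p = 1.2e-04), while the feedback inhibitor Socs3 was not called (0.23 (SE 0.18, adjusted p = 0.34)).

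Retinoic acid genes fell. Retinoic acid, made from vitamin A, acts through nuclear receptors that bind at their target genes. Of 10 tested genes 9 were lower (median −1.42), beside 25.0% of all genes, and the same number without any 1 of the 8 libraries. After subtraction 6 were lower (median −0.80), beside 13.6% of all genes. Of 5 kept genes 4 were lower, beside 17.1% of kept genes. Stra8, a germ cell gene named for its induction by retinoic acid, stood at 4.55, 7.12, 2.13 and 2.06 RPKM in a2i and 59.8, 32.7, 22.1 and 10.8 RPKM in serum. The a2i lines lay below all serum lines and the difference was −2.58 (SE 0.26, adjusted p = 5.6e-06), with 0 RPKM in both MEF libraries.

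Rarg, a retinoic acid receptor, stood at 8.13, 14.4, 11.4 and 8.75 RPKM in a2i and 47.1, 33.9, 52.2 and 44.4 RPKM in serum and differed by −1.98 (SE 0.23, adjusted p = 2.6e-05), or −1.84 (SE 0.24, adjusted p = 1.1e-04) after subtraction. Its levels in the S lines of the MSM/Ms cross were 48.4 and 125 RPKM. Cyp26a1, the enzyme that breaks retinoic acid down and a direct target, stood at 0.0476, 0.0902, 0 and 0.0377 RPKM in a2i and 2.41, 1.44, 1.46 and 0.301 RPKM in serum, low in all lines, and fell by 1.12 (SE 0.17, adjusted p = 2.2e-04). Crabp2, which carries retinoic acid to its receptors, differed by −1.9 and by −1.63 (SE 0.21, adjusted p = 1.1e-04) after subtraction. Crabp1 moved from −2.37 to −0.26 (SE 0.28, adjusted p = 0.48). Rarb, at 0.436 RPKM or less in every line, was below the filter.

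Retinoic acid receptors bind 2 hexamer sites in the same direction with 5 bases between them, called DR5. A search on both strands for hexamer sites of the letters NGNTCA, with A or G at the first N and G or T at the other N, found the pair in 0.0883% of the upstream windows, in 0.104% of genes, and in 2 of 8 retinoic acid genes with an entry (Cyp26a1 and Rarb). The Cyp26a1 stretch is shown with the match in capitals, which reads on the other strand and begins 32 bases before the start.
Cyp26a1, chr19:37697688-37697807, forward strand: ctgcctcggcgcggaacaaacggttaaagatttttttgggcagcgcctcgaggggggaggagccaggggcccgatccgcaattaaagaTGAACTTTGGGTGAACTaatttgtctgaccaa

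The de novo DNA methyltransferases were lower in a2i. Dnmt3b stood at 18.8, 16.9, 21.1 and 16.7 RPKM in a2i and 39.0, 34.4, 93.3 and 40.9 RPKM in serum. The groups did not overlap, serum XY line 10 was the highest, and the difference was −1.33 (SE 0.23, adjusted p = 6.1e-04), or −1.04 without that line. Dnmt3a stood at 21.6, 25.9, 28.7 and 26.4 RPKM in a2i and 50.7, 34.9, 93.5 and 69.7 RPKM in serum and fell by 1.16 (SE 0.19, adjusted p = 4.0e-04). Their cofactor Dnmt3l fell by 0.65 (SE 0.14, adjusted p = 0.0026), with overlapping groups. Dnmt1, the maintenance enzyme, was not called (0.21 (SE 0.11, adjusted p = 0.17)), and Uhrf1, which guides it to replicating DNA, rose by 0.38 (SE 0.10, adjusted p = 0.009). The dioxygenases Tet1 (−0.21 (SE 0.14, adjusted p = 0.27)) and Tet2 (−0.37 (SE 0.21, adjusted p = 0.19)) were not called. Of the 14 genes of the DNA methylation machinery 2 were higher and 5 lower (median −0.27), beside 12.4% and 25.0% of all genes. The higher count was 1 without a2i XX line 4, a2i XY line 1, serum XX line 46, serum XY line 10 or serum XY line 16. Of 7 genes of polycomb repressive complex 2, all kept, 3 were higher and 1 lower, beside 16.2% and 17.1% of kept genes. Without a2i XX line 4 or a2i XY line 1, 1 was higher. Eed, a core subunit, rose by 0.32 (SE 0.08, adjusted p = 0.0062) and Jarid2, an accessory subunit, fell by 0.60 (SE 0.16, adjusted p = 0.0091).

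Imprinted genes, which are read from 1 parental copy, were mostly lower as deposited, with a large fibroblast share. Of 8 tested maternally expressed genes 6 were lower and 1 higher, and after subtraction 3 and 2. Of 16 paternally expressed genes 10 were lower and 1 higher, and after subtraction 5 and 2. Of all genes 25.0% were lower and 12.4% higher as deposited, and 13.6% and 24.5% after subtraction. Cdkn1c, a Cdk inhibitor, stood at 6.87, 4.68, 5.90 and 4.70 RPKM in a2i and 12.9, 14.8, 23.3 and 18 RPKM in serum and differed by −1.46, or by −1.20 (SE 0.16, adjusted p = 1.2e-04) after subtraction. Phlda2 fell by 0.87 (SE 0.21, adjusted p = 0.0069). The paternally expressed Peg3 and Peg10, both kept genes, differed by −1.03 (SE 0.11, adjusted p = 9.1e-06) and −1.23 (SE 0.21, adjusted p = 5.2e-04). Plagl1, a zinc finger factor, stood at 17.7, 28.5, 9.71 and 6.78 RPKM in a2i and 6.73, 12.5, 3.38 and 1.91 RPKM in serum and rose by 1.28 (SE 0.20, adjusted p = 3.0e-04) as deposited. It was set aside, with a fibroblast estimate of 39.1% of its serum level, and its difference after subtraction was 2.11 (SE 0.24, adjusted p = 3.9e-05). Igf2 moved from −4.33 to −0.23 (SE 0.76, adjusted p = 0.83) with subtraction, and H19, Meg3 and Rian had no row under those names in the table used here.

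Germline genes moved in both directions. Of 15 tested members, all kept, 3 were higher and 6 lower (median −0.31), beside 16.2% and 17.1% of kept genes. Under quantile normalization 6 were higher and 4 lower, beside 2234 and 798 of all kept genes. Fkbp6, a meiotic immunophilin, stood at 33.0, 23.8, 12.9 and 12.2 RPKM in a2i and 11.4, 14.0, 1.68 and 3.20 RPKM in serum and rose by 1.55 (SE 0.15, adjusted p = 5.3e-06). Within each sex its a2i lines lay above the serum lines. Dazl, a germ cell RNA-binding protein, rose by 0.65 (SE 0.17, adjusted p = 0.0093), while Mael and Tdrkh of the piRNA pathway differed by −1.09 (SE 0.21, adjusted p = 0.0015) and −1.51 (SE 0.19, adjusted p = 5.6e-05). Zscan4d, a gene of the cleavage-stage embryo that a few serum ESCs express at a time, stood at 0.230, 0, 0.0491 and 0.0364 RPKM in a2i and 2.71, 2.77, 1.30 and 0.457 RPKM in serum and fell by 1.28 (SE 0.14, adjusted p = 9.4e-06). Its near-identical Zscan4 copies make its own level uncertain.

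Metabolic genes changed in a few members. Pfkp, a phosphofructokinase of glycolysis, stood at 176, 232, 197 and 216 RPKM in a2i and 113, 90.2, 66.1 and 93.6 RPKM in serum. It rose by 1.19 (SE 0.13, adjusted p = 1.0e-05) without overlap. Hk2, a hexokinase, stood at 104, 174, 98.4 and 103 RPKM in a2i and 67.5, 67.3, 75.7 and 89.8 RPKM in serum and rose by 0.64 (SE 0.15, adjusted p = 0.0052), with a2i XX line 18 above the rest. Of 16 glycolysis genes 5 were higher and 1 lower (median −0.10), beside 12.4% and 25.0% of all genes. The counts were 5 higher and 7 lower without a2i XX line 18, beside 1504 and 2928 of all 13128 genes tested without it. Under quantile normalization they were 3 higher and 4 lower, beside 3345 and 2234 of all 13150 genes.

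Asns, which makes asparagine and is a target of the amino acid stress factor Atf4, stood at 873, 737, 957 and 898 RPKM in a2i and 417, 459, 336 and 372 RPKM in serum. All a2i lines were above all serum lines and it rose by 1.13 (SE 0.09, adjusted p = 4.3e-07). Shmt2, which turns serine into glycine in mitochondria, rose by 0.53 (SE 0.08, adjusted p = 2.8e-04). Of 12 genes of the amino acid stress response 4 were higher and none lower (median 0.23), beside 12.4% and 25.0% of all genes. After subtraction 6 were higher (median 0.39), beside 24.5% of all genes. Trib3, a pseudokinase that was set aside, was among the 4 (0.51 (SE 0.16, adjusted p = 0.022) as deposited and 0.72 (SE 0.16, adjusted p = 0.0035) after subtraction) but as deposited was not called without a2i XX line 4, a2i XY line 1, serum XX line 17 or serum XY line 10 (range 0.36 to 0.65).

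Of 16 cholesterol synthesis genes 14 were set aside. As deposited 6 were lower and 1 higher, beside 25.0% and 12.4% of all genes. After subtraction 1 was lower and 4 higher, beside 13.6% and 24.5% of all genes. With rescaling 2 were lower and 2 higher, beside 2414 and 1794 of all 12960 genes. The median was −0.19 as deposited, 0.17 after subtraction and 0.04 with rescaling, so the direction varied with the setting. As deposited, 3 were lower without a2i XY line 3 or serum XX line 46. Insig1, a sterol-sensing protein that holds back the cholesterol synthesis factors, differed by −0.29 (SE 0.10, adjusted p = 0.039) as deposited and by −0.0011 after subtraction. It was not called without a2i XX line 4, a2i XY line 1, a2i XY line 3, serum XX line 46, serum XY line 10 or serum XY line 16 (range −0.39 to −0.18).

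Among G1 regulators, Cdkn2b, an inhibitor of Cdk4 and Cdk6, stood at 2.26, 1.01, 0.737 and 1.24 RPKM in a2i and 15.7, 19.9, 17.4 and 14.6 RPKM in serum. It differed by −2.98 (SE 0.18, adjusted p = 4.8e-08) as deposited and by −2.15 (SE 0.20, adjusted p = 8.3e-06) after subtraction, without overlap. Cdkn1b, which encodes p27, rose by 0.75 (SE 0.14, adjusted p = 0.0011) as deposited and by 0.93 (SE 0.15, adjusted p = 6.6e-04) after subtraction. Ccne1, a cyclin E gene, stood at 91.8, 82.3, 118 and 98.5 RPKM in a2i and 145, 143, 167 and 180.2 RPKM in serum and fell by 0.70 (SE 0.11, adjusted p = 2.6e-04). Cdkn1a, set aside with a fibroblast estimate of 31.3% of its serum level, turned from −0.25 (SE 0.11, adjusted p = 0.083) to 0.29 (SE 0.12, adjusted p = 0.076) with subtraction and was called in neither. Of the 9 genes listed 2 were higher and 4 lower (median −0.38), beside 12.4% and 25.0% of all genes. Cdkn1b alone was higher without a2i XX line 18, a2i XY line 1, a2i XY line 3, serum XX line 17, serum XX line 46 or serum XY line 16.

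Beyond the lists, the most raised and most lowered kept genes at 5 RPKM or more were taken, from those without overlap between the groups. Pglyrp1, a secreted peptidoglycan recognition protein, led the raised genes at 27.9, 41.8, 59.3 and 59.0 RPKM in a2i and 1.29, 1.67, 1.28 and 1.99 RPKM in serum. The difference was 4.18 (SE 0.19, adjusted p = 2.6e-09). Gpx2, a glutathione peroxidase, stood at 125, 97.7, 207 and 260.2 RPKM in a2i and 15.6, 10.7, 14.1 and 28.8 RPKM in serum and rose by 3.23 (SE 0.18, adjusted p = 2.7e-08). Trpm1, a cation channel known from retina and melanocytes, stood at 25.4, 19.7, 39.3 and 37.3 RPKM in a2i and 1.95, 3.84, 1.64 and 2.14 RPKM in serum and rose by 3.20 (SE 0.18, adjusted p = 2.0e-08). None of the 3 exceeded 0.297 RPKM in the MEFs. All 4 a2i lines lay above all serum lines in each, as the choice of these genes required.

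Dmgdh, the mitochondrial dimethylglycine dehydrogenase, rose from 0.50, 0.0415, 0.148 and 0.0968 RPKM in serum to 6.57, 5.92, 5.96 and 5.67 RPKM in a2i, by 2.57 (SE 0.14, adjusted p = 2.1e-08). The remaining raised genes were Tspo2 (2.5), Fetub (2.48), Calb2 (2.32), 4930502E18Rik (2.27), Slc4a5 (2.1) and Ppp1r14d (2.1). RefSeq names 4930502E18Rik Ct55, on the X chromosome. It stood at 6.35, 6.19, 4.89 and 6.18 RPKM in a2i and 0.650, 1.04, 0.0959 and 0.110 RPKM in serum.

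Fosb, Fos, Egr1 and Car4 were 4 of the 10 most lowered genes. Mgp, the matrix Gla protein that inhibits calcification, stood at 0, 0, 1.15 and 0.142 RPKM in a2i and 42.2, 138, 119 and 166 RPKM in serum and fell by 6.38 (SE 0.29, adjusted p = 3.4e-09). The MEFs read 86.3 and 13.4 RPKM, and a further library of the MSM/Ms cross, labelled 2i_MEF and with a fibroblast marker sum of 20382.5 RPKM, read 304.7 RPKM. The level of this gene thus varied widely between fibroblast libraries. Rgs16, which switches off G protein signals, stood at 0.315, 0.332, 0.262 and 0.498 RPKM in a2i and 41.4, 40.4, 29.7 and 33.0 RPKM in serum and fell by 4.77 (SE 0.10, adjusted p = 2.4e-12), with MEF levels of 18.4 and 26.2 RPKM. Mmp3, a secreted protease, stood at 0, 0, 0 and 0.0741 RPKM in a2i and 18.5, 24.9, 15.5 and 61.2 RPKM in serum and fell by 4.72 (SE 0.29, adjusted p = 5.4e-08). In the S lines of the MSM/Ms cross Mgp read 7.97 and 37.8 RPKM, Rgs16 2.17 and 3.15 RPKM and Mmp3 1.46 and 11.7 RPKM.

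Isg15, a ubiquitin-like protein induced by interferon, stood at 0, 0, 0.144 and 0 RPKM in a2i and 5.10, 17.0, 17.1 and 8.64 RPKM in serum, detected in 1 of 4 a2i lines, and fell by 3.51 (SE 0.27, adjusted p = 5.3e-07). Serpina3n, an acute phase protease inhibitor, fell by 3.29 (SE 0.22, adjusted p = 1.4e-07), at a fibroblast estimate of 9.74% of its serum level, just inside the limit for kept genes. Gm10260 stood at 1.45, 2.47, 1.24 and 1.84 RPKM in a2i and 32.4, 55.5, 54.1 and 45.8 RPKM in serum and differed by −4.11 (SE 0.24, adjusted p = 3.3e-08). RefSeq names it Rps18-ps6, a pseudogene of a ribosomal protein on chromosome 13, so its reads cannot be told from those of near-identical copies, and it read 0 and 0.297 RPKM in the S lines of the other cross.

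Interferon-induced genes hold the interferon-stimulated response element, whose core was searched as GAAANNGAAA on both strands. It lay in 2.98% of the upstream windows and in 3.46% of genes. The Isg15 stretch is shown because Isg15 was among the most lowered genes. Its 3 overlapping matches, in capitals, begin 78, 72 and 66 bases before the start.
Isg15, chr4:156200819-156200938, reverse strand: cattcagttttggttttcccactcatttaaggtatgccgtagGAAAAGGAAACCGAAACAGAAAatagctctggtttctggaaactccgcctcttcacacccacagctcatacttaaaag

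The a2i effect differed between XX and XY lines in 602 genes (4.58% of those tested), 336 with the XX difference more positive and 266 more negative. Of 474 X-linked genes tested 41 were called (8.65%), and 41 of the 602 were X-linked (6.81%, beside 3.60% of all genes tested). In 72 genes the 2 sexes were each called in opposite directions. Leaving out any 1 library gave 208 to 534 such genes, and the 8 libraries alone gave 188. The count was 208 without a2i XY line 3, 224 without serum XX line 17, 231 without serum XY line 10, 257 without serum XY line 16, 276 without a2i XY line 1 and 361 without a2i XX line 18. With 2 lines per medium and sex, a line and its sex cannot be fully told apart.

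Dusp9, an X-linked ERK phosphatase, had the smallest p of this test. It stood at 102, 90.3, 6.75 and 7.94 RPKM in a2i and 177, 167, 74.6 and 63.0 RPKM in serum. The a2i XY lines were far below the rest, and the difference was −0.83 in the XX lines and −3.06 in the XY lines, an XX minus XY value of 2.23 (SE 0.19, adjusted p = 4.1e-04). Vwa3b, on chromosome 1, stood at 81.8, 80.7, 8.99 and 8.61 RPKM in a2i and 44.6, 52.3, 30.5 and 25.6 RPKM in serum. Its differences were 0.74 in the XX lines and −1.56 in the XY lines, with an XX minus XY value of 2.30 (SE 0.23, adjusted p = 0.0014). Calb2, the calcium-binding protein calretinin, on chromosome 8, stood at 3.04, 2.83, 32.8 and 33.9 RPKM in a2i and 0.778, 1.37, 1.24 and 2.09 RPKM in serum. It was high in the a2i XY lines and low in all others, with an XX minus XY value of −2.77 (SE 0.28, adjusted p = 0.0014).

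Nkx6-2, a homeobox gene on chromosome 7, stood at 5.15, 6.56, 33.3 and 33.5 RPKM in a2i and 4.39, 3.53, 2.93 and 3.21 RPKM in serum and also was high in the a2i XY lines, with a value of −2.61 (SE 0.28, adjusted p = 0.0014). Gm21887 stood at 0.260, 0, 7.18 and 8.64 RPKM in a2i and 4.69, 4.63, 1.20 and 0.908 RPKM in serum, and its value was −4.45 (SE 0.47, adjusted p = 0.0014). RefSeq names it Erdr1, a transcribed pseudogene on X, so its level is uncertain. Egr1 differed by −5.63 in the XX lines and −3.5 in the XY lines (−2.13 (SE 0.27, adjusted p = 0.0029)) and Fosb by −6.20 in the XX lines and −4.76 in the XY lines (−1.44 (SE 0.24, adjusted p = 0.008)). Ctgf differed by −3.38 in the XX lines and −4.98 in the XY lines (1.60 (SE 0.28, adjusted p = 0.011)) and Cyr61 by −3.36 in the XX lines and −4.98 in the XY lines (1.63 (SE 0.31, adjusted p = 0.015)). Those 4 genes fell in both sexes, the first pair more in XX lines and the second pair more in XY lines. Fosb read 0.144 RPKM or less in every a2i line, so its value between the sexes follows its serum levels, which were higher in the XX lines. Tbx3, a T-box factor of the naive network, differed by −0.45 in the XX lines and 1.11 in the XY lines (−1.57 (SE 0.38, adjusted p = 0.038)), and Klf2 by −1.19 in the XX lines and 0.04 in the XY lines (−1.23 (SE 0.28, adjusted p = 0.031)).

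**Figure D4:**
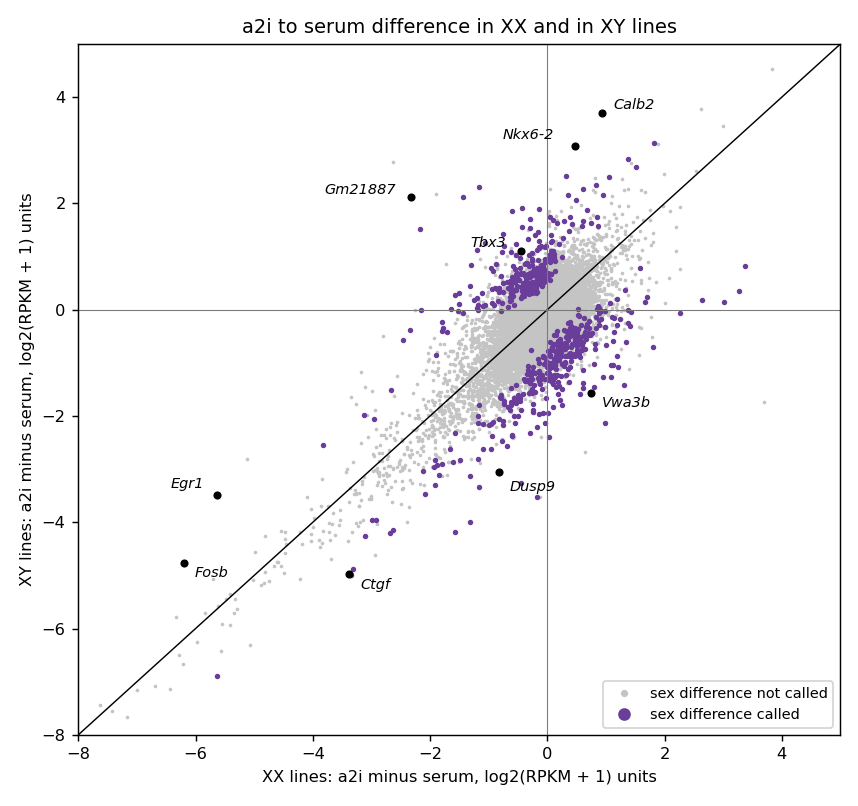
Each point is a gene, with the a2i minus serum difference in the XX lines on the x axis and in the XY lines on the y axis, both in log2(RPKM + 1) units; purple points are the 602 genes called for a difference between the sexes, and the black line marks equal differences. Dusp9 and Vwa3b lie below the line, and Calb2, Nkx6-2, Gm21887, Tbx3, Egr1 and Fosb above it.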

How the data were processed

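RNA-seq of 26 libraries was deposited by the authors as 1 table of RPKM values for 21942 loci. Per the submitters' processing notes, the tools used on these samples include Cufflinks 2.2.1, cutadapt 1.9.1, Bowtie2 2.2.5 and TopHat2 2.1.0, on the mm10 build. RPKM holds no read counts, so the depth is unknown and no counting interval can be given. RPKM totals were 793123 to 934309 in a2i and 771909 to 792783 in serum. Filtering and strandedness are not given in the sources used here.

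A gene was tested where 2 or more of the 16 libraries of the B6 cross reached 1 RPKM, with limma 3.58.1 (R 4.3.3) on log2(RPKM + 1), which understates changes of low genes. Each medium and sex had its own mean, and the contrast averaged the XX and the XY difference (Benjamini-Hochberg, adjusted p under 0.05). Within a medium the lines carry different numbers, and p-values measure the spread between lines of the same medium and sex. Some numbers recur between media, such as XX line 4 in 2i and in a2i. Whether these share a derivation is not stated, and the fit treats them as separate. The fit was tested on simulated data.

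Alternatives were a pseudocount of 0.1, no filter, quantile normalization, and the 8 libraries alone with and without the sex term. Further ones were other limits for setting genes aside (5% and 20%), subtraction of the fibroblast share, and leaving out each library. Named were the key genes of 32 lists, up to 5 further called genes per list, the 10 most raised and 10 most lowered kept genes at 5 RPKM or more without overlap, and up to 5 genes with the smallest p between the sexes. Of 365 listed genes 11 had no match in the table, and a few others are counted in their lists but not reported singly here. Members and lists were chosen with earlier results of these data known. Upstream stretches are those of RefSeq. Libraries of a group correlated at 0.986 or more within a sex, and no 2 libraries were identical.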

Additional observations from a re-analysis of the deposited data

Results flagged for a closer look

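In 21 of 432 groups of 4 lines examined, 1 line stood apart from the other 3, by a gap that took up nearly the whole range of the group (Dixon's criterion at 95%). Chance gives about 1 in 20. Serum XY line 10 stood apart for the endoderm genes Gata4 at 16.3 RPKM, Gata6 at 5.66, Sox17 at 7.62, Dab2 at 44.2 and Foxq1 at 5.42, all high, for Dnmt3b at 93.3 (high) and for Nr5a2 at 14.5 (low). Without this line Foxq1 fell under the filter on low values, and the other called genes kept their call. Serum XX line 46 stood apart for Id3 at 88.5 RPKM, Cyr61 at 163.1 and Itgb1 at 137.1. Tet2 read 17.2 RPKM in serum XX line 17 and Msx1 read 0.584 in serum XY line 16.

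In a2i, XX line 18 stood apart for Dusp4 at 10.2 RPKM, Lefty1 at 61.9 and Hk2 at 174.1, and XX line 4 for Hand1 at 1.45. The a2i XY line 1 stood apart for Ccnd2 at 13.9 RPKM, Ccnd1 at 54.6, 4930502E18Rik at 4.89 and Mgp at 1.15, and XY line 3 for Etv5 at 84.8.

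For 29 named genes the a2i effect differed between the sexes by limma's test of the difference itself (adjusted p under 0.05), given here as the XX minus the XY difference in log2 units. It was positive for Dusp9 (2.23), Vwa3b (2.30), Pfkl (1.74), Cyr61 (1.63), Ctgf (1.60), Cldn3 (1.25), Ndn (1.24), Skil (1.19), Smad7 (1.18), Insig1 (1.18), Smad6 (1.09), Ets2 (1.0), Pim1 (0.92), Gpi1 (0.85) and Itgb1 (0.81). It was negative for Gm21887 (−4.45), Calb2 (−2.77), Nkx6-2 (−2.61), Egr1 (−2.13), Tbx3 (−1.57), Slc4a5 (−1.46), Fosb (−1.44), Krt7 (−1.43), Fetub (−1.33), Trib3 (−1.30), Klf2 (−1.23), Egr2 (−1.15), Zfp57 (−0.97) and Dppa4 (−0.65). Fosb and Egr2 were near 0 RPKM in all a2i lines, so their values follow their serum levels.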

How the results depend on the processing

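Of the counts over all genes, those higher and lower in a2i were 3345 and 2234 under quantile normalization and 3166 and 1758 after subtracting the fibroblast share. They were 1424 and 3038 with the 8 libraries alone, and 493 and 1815 with these 8 and no sex term. Among kept genes the counts higher and lower were 2234 and 798 under quantile normalization and 667 and 800 with a limit of 5% for setting genes aside. The 8 libraries alone gave 1066 and 1145 kept genes, and 359 and 537 with no sex term. With a limit of 20% the lower count was 1929. The count of genes that differed between the sexes was 188 with the 8 libraries alone. Leaving out 1 library at a time gave 1228 to 1504 higher and 2664 to 3118 lower genes, 896 to 1138 and 975 to 1226 among kept genes, and 208 to 534 genes that differed between the sexes, all below the counts with all libraries. The cause of these shifts was not tested, except that fewer libraries leave fewer degrees of freedom. A pseudocount of 0.1, no filter, the 2i_MEF library as a further reference and a limit set against the mean of both groups moved no count of higher or lower genes by more than 1.5 times.

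Of 215 named genes tested, 193 were called, and 31 of these lost the call without at least 1 library while 8 others gained one. With the 8 libraries alone 12 lost it, and with these 8 and no sex term 78 did. Directions turned in few of the called genes. Subtraction turned Dusp4 to 0.063, Col1a1 to 0.41, Apcdd1 to 0.48, Zyx to 0.84, Lats2 to 0.34, Cdh2 to 1.34, Grb10 to 0.20, Igf2r to 0.050 and Ndn to 0.058, and it also turned 2 named genes that were not called, Csk to 0.077 and Cdkn1a to 0.29. With rescaling the values were 0.41 for Col1a1, 0.40 for Apcdd1, 0.75 for Zyx, 0.29 for Lats2, 1.34 for Cdh2 and 0.063 for Grb10. Quantile normalization turned Nkd1 to 0.053 and Ddx3y to 0.0028.

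No paired analysis was possible because the a2i and serum lines share no line number. RPKM values give no depth, so how far low levels are limited by counting is unknown.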
